A study of Mus musculus with 11 samples.

Results

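The Hox cluster genes are described here as 38 of the 39179 gene rows in a table of RNA-seq counts from mouse embryonic stem cells (ESCs) and embryoid bodies (EBs). The members are the rows whose Ensembl identifiers carry a protein-coding Hox symbol of cluster a, b, c or d in the GENCODE annotation of GRCm38. The rule used no measured value. Of 39 such genes in the annotation, 38 had a row, with 11 in cluster a on chromosome 6, 10 in cluster b on chromosome 11, 9 in cluster c on chromosome 15 and 8 in cluster d on chromosome 2. Hoxd4 was not analysed here. By paralog number, 11 members were anterior (1 to 4), 11 central (5 to 8) and 16 posterior (9 to 13).

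The groups were Mettl3-KO EBs (2 libraries, A and B), WT EBs (2 libraries, A and B), Mettl3-KO ESCs (3 libraries, A, B and C) and WT ESCs (3 libraries, A, B and C), all of strain C57BL/6. Mettl3 carries the catalytic site of the enzyme that places N6-methyladenosine (m6A) in messenger RNA. ESCs were cultured without serum in N2B27 medium with LIF, the GSK3 inhibitor CHIR99021 and the MEK inhibitor PD0325901. EBs, aggregates in which ESCs differentiate, were grown for 8 to 21 days on non-adherent plates in DMEM with serum, L-glutamine, non-essential amino acids, penicillin and streptomycin. The labels call the libraries biological replicates. They do not give the number of clones of the KO line or the day on which each EB library was taken, and ESC replicate C was the one measured alongside a SILAC protein assay.

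Hox genes encode homeodomain transcription factors that give cells of the embryo their position along the head to tail axis. In each cluster the order of the genes follows the order of their expression: genes of low paralog number are used early and towards the head, often in response to retinoic acid, and genes of high paralog number late and towards the tail. In ESCs the clusters are held silent by Polycomb group proteins, and many Hox proteins bind DNA together with TALE homeodomain proteins of the Pbx and Meis families.

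GGACT, the commonest core of the m6A motif of the Mettl3 complex, was searched on the sense strand of 1 spliced transcript per gene. It was found in 33 of the 38 Hox transcripts (86.8%), against 87.6% of 21901 protein-coding genes, and its median density was 1.06 per kb in Hox transcripts and 1.01 per kb in all. Some sites are shown, from genes whose KO and WT levels are compared below. GGACT is in capitals, with 10 reference bases (GRCm38, plus strand, read from the genome) on each side. Hoxb13 had 5 matches, all in the 3′ UTR. Hoxb9 had 3, Hoxc4 4, Hoxd3 7, Hoxd8 2, Hoxd13 2 and Hoxc13 1, while Hoxc12 and Hoxb4 had none in their transcripts.
Hoxb13 3′ UTR, chr11:96196284-96196308: gccagggccaGGACTggcagaggac
Hoxb13 3′ UTR, chr11:96196349-96196373: tctgagttctGGACTgttcctcggg
Hoxb9 coding, chr11:96271666-96271690: ccgagcacctGGACTtcccctcgtg
Hoxc13 3′ UTR, chr15:102927744-102927768: taccaaagcaGGACTggggaattcc
Hoxd3 coding, chr2:74746931-74746955: cggccagcgtGGACTacagttgcgc
Hoxd8 coding, chr2:74705807-74705831: ggcccggccaGGACTacttccacgc
A match is a string of letters and not a measured m6A site.

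Hox promoters are known for their CpG content. RefSeq promoter windows (GRCm38.p6, 250 bases before to 50 after a start) were found for 21 of the members. Their median CpG count per 300 bases was 15, against 7 over all 32851 windows. The windows of Hoxd3 and Hoxd8, which were both higher in KO than in WT ESC replicates A and B, differed in this count, with 20 and 6. Both are printed on the plus strand with each CpG in capitals.
Hoxd3, chr2:74711743-74712042: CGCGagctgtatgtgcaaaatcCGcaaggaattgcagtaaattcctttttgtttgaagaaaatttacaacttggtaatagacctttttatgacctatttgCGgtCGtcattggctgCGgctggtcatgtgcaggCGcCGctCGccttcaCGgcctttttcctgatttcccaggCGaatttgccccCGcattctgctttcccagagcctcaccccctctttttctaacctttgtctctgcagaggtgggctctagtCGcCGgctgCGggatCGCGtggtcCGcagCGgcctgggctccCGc
Hoxd8, chr2:74704365-74704664: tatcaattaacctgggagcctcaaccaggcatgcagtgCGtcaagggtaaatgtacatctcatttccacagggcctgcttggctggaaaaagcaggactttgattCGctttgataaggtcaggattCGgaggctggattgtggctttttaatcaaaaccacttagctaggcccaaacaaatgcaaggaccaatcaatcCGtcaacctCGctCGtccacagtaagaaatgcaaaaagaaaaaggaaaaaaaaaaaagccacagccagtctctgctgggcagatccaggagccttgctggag
The caudal motif TTTATG, searched on both strands, stood in 4 of 23 Hox windows, that of Hoxd3 among them (11.9% of all windows). The Hox and Pbx motif TGATNNAT stood in 4 of 23 (8.85% of all) and the Meis motif TGACAG in 2 of 23 (19.2% of all).

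Reads in genes came to 3075007 in KO ESC replicate C and 3026837 in WT ESC replicate C, and to between 8523027 and 15426894 in the other 8 libraries. A level of 3 reads equals 8.33 normalized counts in KO ESC C and 9.88 in WT ESC C, and 1.63 to 2.72 elsewhere. In either genotype library C lay far from the other two, so results are given with and without both C libraries. Mettl3 itself had 154 and 147 normalized counts in KO EBs, against 399 and 368 in WT EBs, and 138, 134 and 131 in KO ESCs, against 422, 392 and 425 in WT ESCs. It fell in KO EBs (log2 difference -1.34, limma adjusted p = 0.0143) and in KO ESCs (-1.62, adjusted p = 0.0123). The labels were checked against marker lists. The summed level of 14 pluripotency genes was 36267 to 41214 normalized counts in KO EBs and 24598 to 26959 in WT EBs, against 54533 to 61026 in KO ESCs and 46762 to 127794 in WT ESCs. The summed level of 22 fibroblast and matrix genes was 15302 to 15574 in KO EBs and 16750 to 16985 in WT EBs. In ESCs it was 2689 to 25802 in KO and 5030 to 21781 in WT, with the low end of both ranges in replicate C. ESC replicates A and B, with 25743 and 25802 in KO and 21781 and 21607 in WT, lay above every EB library. This list thus did not set the EBs above the ESCs.

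Hox transcripts were scarce in all 10 libraries, and they made up a larger share of reads in KO than in WT EBs. All members together took 68.4 and 68.3 RPM (reads scaled by all reads in genes) in KO EBs A and B, against 36.5 and 38.1 in WT EBs A and B. In KO ESCs A, B and C the values were 72.0, 65.3 and 13.7, against 43.5, 42.4 and 9.25 in WT ESCs. The EB genotypes did not overlap, and neither did ESC replicates A and B, whereas replicate C was low in both genotypes. These sums rest on 728 and 582 Hox reads in KO EBs, 389 and 348 in WT EBs, 1110, 576 and 42 in KO ESCs and 543, 473 and 28 in WT ESCs. Replicate C held 3 or more reads for 6 members in KO ESCs and for 2 in WT ESCs, so a low value there is often not distinguishable from 0 at this depth. In bulk RNA, fewer cells that express a gene and less RNA per cell cannot be told apart.

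**Figure D1:**
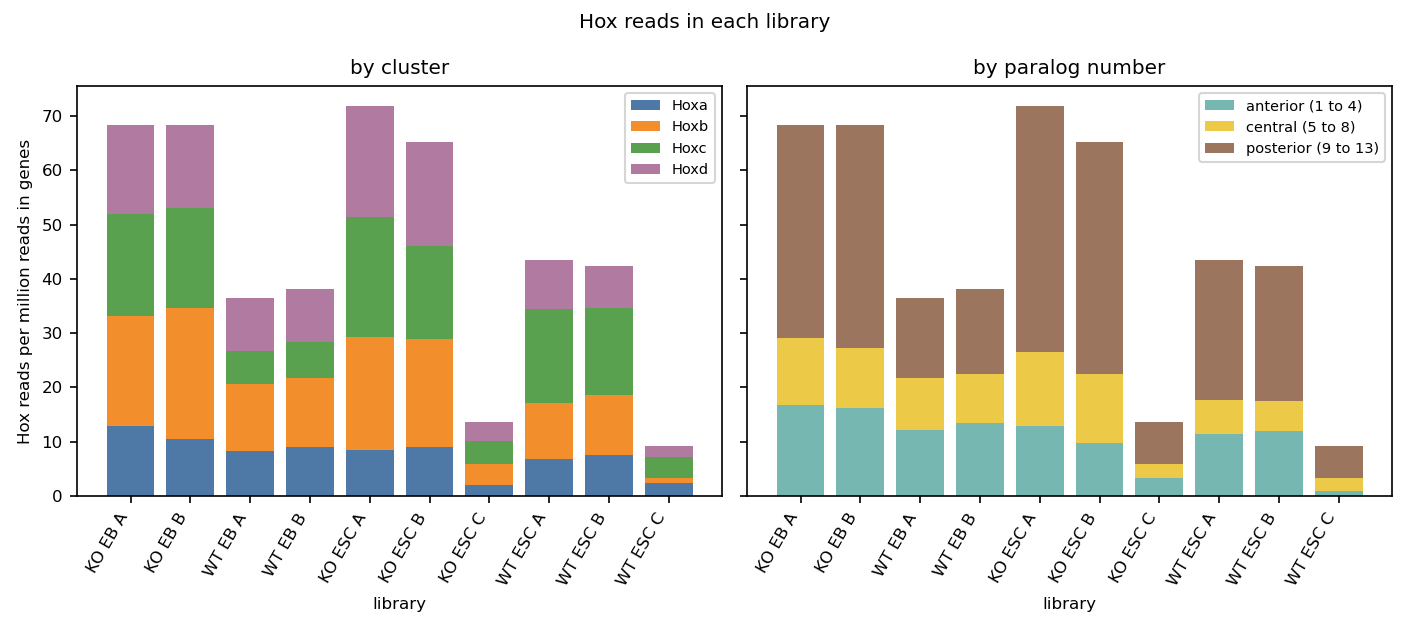
Hox RPM, scaled by all reads in genes, in each library, stacked by cluster on the left and by paralog number on the right. KO EBs stood at 68.4 and 68.3 and WT EBs at 36.5 and 38.1, and ESC replicate C was lowest in both genotypes at 13.7 (KO) and 9.25 (WT).

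The share of Hox reads from the 16 posterior genes was 57.4% (95% Wilson interval 53.8 to 61.0) and 59.97% (55.9 to 63.9) in KO EBs, against 40.4% (35.6 to 45.3) and 41.1% (36.0 to 46.3) in WT EBs. The 5 tested posterior genes had 643 of 1310 Hox reads (49.1%) in KO EBs, against 150 of 737 (20.4%) in WT EBs. The other 11 went against the summed share, with 124 reads (9.47%) in KO EBs, against 150 (20.4%) in WT EBs. In KO ESCs the posterior share was 63.2% (60.3 to 65.9), 65.5% (61.5 to 69.2) and 57.1% (42.2 to 70.9), against 59.3% (55.1 to 63.4), 58.99% (54.5 to 63.3) and 64.3% (45.8 to 79.3) in WT ESCs, where the genotypes overlapped once replicate C was counted. The 9 genes of cluster c had 27.3% and 27.0% of Hox reads in KO EBs, against 16.7% and 17.2% in WT EBs. Of these, the tested genes Hoxc4, Hoxc12 and Hoxc13 had 309 reads in KO EBs, against 67 in WT EBs. The other 6 had 47 in KO EBs, against 58 in WT EBs, and the same limit holds for this split. In ESCs cluster c had 30.7%, 26.0% and 31.0% in KO, against 39.8%, 38.1% and 42.9% in WT. The intervals cover counting error only.

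**Figure D2:**
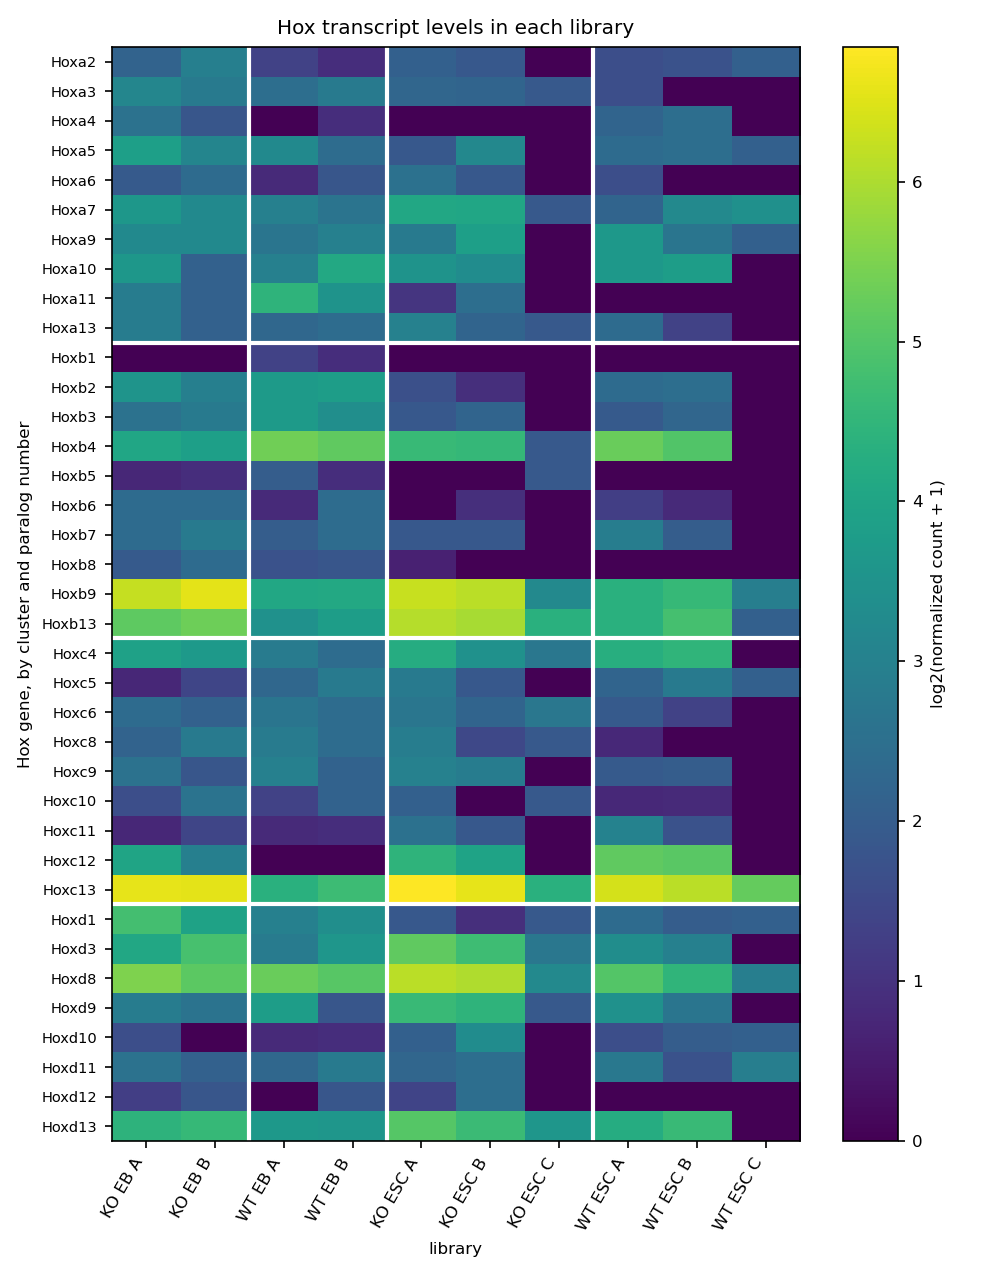
Level of 37 of the 38 Hox genes, as log2(normalized count + 1), in the 10 libraries, with genes in rows by cluster and paralog number and libraries in columns by group. The palest rows are Hoxc13 (95.3 and 94.2 normalized counts in KO EBs), Hoxb9, Hoxb13 and Hoxd8, and ESC replicate C is the darkest column in both genotypes.

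Of the 38 members, 10 had a mean of 10 or more normalized counts over the 10 libraries and entered the test, of which 9 are described here: Hoxb4, Hoxb9, Hoxb13, Hoxc4, Hoxc12, Hoxc13, Hoxd3, Hoxd8 and Hoxd13. A member can pass this filter through the group in which it is high, so counts over these 10 describe them and not the clusters. In the limma fit to all 10 libraries, 0 of the 10 passed an adjusted p of 0.05 between KO and WT EBs, where 1.84% of all 15781 genes tested did, and 0 of 10 between KO and WT ESCs, where 2.38% did. At an unadjusted p under 0.05 there were 1 of 10 in EBs (2189 of all 15781 genes) and 0 of 10 in ESCs (2710 of 15781). With edgeR 0 of 10 passed in EBs (1.79% of all genes) and 0 of 10 in ESCs (2.12% of all genes). DESeq2 called 1 of 10 in EBs (9.83% of all genes), Hoxc13, and 0 of 10 in ESCs (12.4% of all genes).

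The letters A, B and C were taken as pairs of KO and WT libraries, which in ESCs rested mostly on C. The fit was therefore also made with the letter as a block. The block takes the distance of ESC C from A and B out of the spread that all groups share. Smaller SEs in EBs under the block thus need not come from pairing of the EB libraries. With this replicate block 4 of 10 Hox genes were called in EBs (22.7% of all genes) and 2 of 10 in ESCs (29.3% of all genes), all higher in KO. Without both ESC replicate C libraries 8 of 10 were called in EBs (51.9% of all genes), 7 higher and 1 lower, and 4 of 10 in ESCs (55.2% of all genes), all higher. Since A and B of a group were close to each other, p-values without C measure only that small spread. The median log2 difference of the 10 members in EBs was 1.22 with all libraries (0.90 to 1.44 over the alternatives that tested these 10), beside -0.02 for all genes tested. In ESCs it was 0.77, beside -0.02, but rested on replicate C, with -0.17 without WT ESC C, 1.53 without KO ESC C and 0.43 without both. Over all 38 members, with no filter, it was 0.38 in EBs, beside -0.09 for all genes, and 0.24 in ESCs, beside 0.

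**Figure D3:**
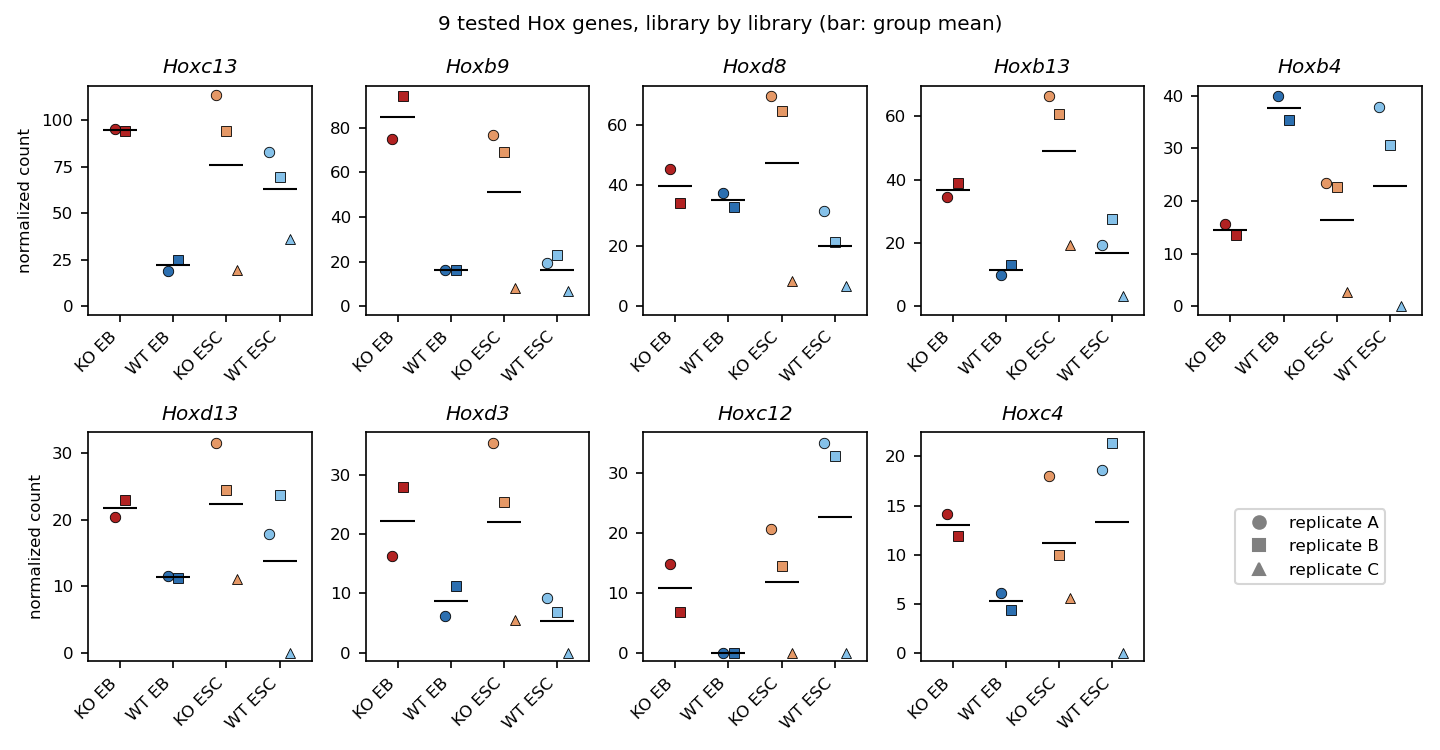
Normalized counts of 9 of the 10 tested Hox genes in each library, with KO left of WT and EBs left of ESCs, and a bar at each group mean. KO EBs lie above WT EBs for Hoxc13, Hoxb9 and Hoxb13 and below them for Hoxb4, and replicate C (triangles) is the lowest library of its ESC group in every panel.

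The 2 posterior genes of cluster b were higher in both KO EB libraries than in either WT EB library. Hoxb9, which helps to pattern the thoracic ribs, had 74.9 and 94.2 normalized counts in KO EBs, against 16.1 and 16.4 in WT EBs. It had 76.7, 69.0 and 8.33 in KO ESCs, against 19.3, 22.9 and 6.59 in WT ESCs. The EB genotypes were further apart than their replicates (84.6 ± 13.7 in KO and 16.2 ± 0.19 in WT, SD, n = 2 each), and ESC replicates A and B were apart in the same direction, but KO ESC C lay below WT ESC A and B. The log2 difference of Hoxb9, KO minus WT, was 2.30 in EBs (SE 1.05, limma adjusted p = 0.397) and 1.26 in ESCs (SE 0.86, adjusted p = 0.559). The replicate block left the sizes as they were and gave SEs of 0.45 and 0.37 with adjusted p = 0.0251 in EBs and 0.058 in ESCs. Over all alternatives the adjusted p ranged from 2.53e-05 to 0.954 in EBs and from 1.13e-04 to 0.909 in ESCs, with the low ends and a log2 difference of 1.74 in ESCs without replicate C.

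Hoxb13, the last gene of cluster b, known for its part in the tail bud and the prostate, stood higher in KO too. It had 34.6 and 39.1 normalized counts in KO EBs, against 9.96 and 12.9 in WT EBs, and 66.4, 60.8 and 19.4 in KO ESCs, against 19.3, 27.5 and 3.29 in WT ESCs. KO exceeded WT under each letter in both cell types, and the EB means were 36.8 ± 3.15 in KO and 11.4 ± 2.09 in WT (SD, n = 2 each). The log2 difference was 1.61 in EBs (SE 0.97, limma adjusted p = 0.575) and 1.70 in ESCs (SE 0.79, adjusted p = 0.334). With the replicate block it was called in both, with adjusted p = 0.033 in EBs (range over alternatives 6.17e-04 to 1) and 0.0138 in ESCs (1.10e-03 to 0.668). Hoxb9 and Hoxb13 lie on chromosome 11, where the median log2 difference of 1344 tested genes was -0.44 in EBs and -0.23 in ESCs, below the -0.02 of all genes.

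In cluster c Hoxc13 and Hoxc12 were higher in both KO EB libraries than in either WT EB library. Hoxc13, which is needed for hair and nails, had 95.3 and 94.2 normalized counts in KO EBs, against 19.2 and 25.0 in WT EBs. It had 114, 94.4 and 19.4 in KO ESCs, against 83.0, 69.5 and 36.2 in WT ESCs, so the ESC genotypes overlapped and replicate C went the other way from A and B. The EB means were 94.8 ± 0.78 in KO and 22.1 ± 4.11 in WT (SD, n = 2 each). The log2 difference in EBs was 2.07 (SE 0.82, limma adjusted p = 0.312), and with the replicate block the adjusted p was 0.0233 (range over alternatives 3.48e-05 to 0.871).

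Hoxc12, its neighbour, had no read in either WT EB library. It had 14.8 and 6.79 normalized counts in KO EBs, against 0 and 0 in WT EBs, and 20.7, 14.5 and 0 in KO ESCs, against 35.1, 32.8 and 0 in WT ESCs. With 29 reads in KO EBs and 0 in WT EBs, the level was at least 9.19-fold higher in KO EBs, taking 3 reads over the WT EB group as the floor. In ESC replicates A and B the order of the genotypes was the opposite. The fitted log2 difference in EBs, 3.47 (SE 2.05, limma adjusted p = 0.566), depends on the pseudocount, and the replicate block gave adjusted p = 0.0122 (range over alternatives 1.47e-04 to 1).

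Hoxd13, the last gene of cluster d and a regulator of digits and genitalia, had 20.5 and 22.9 normalized counts in KO EBs, against 11.5 and 11.2 in WT EBs. The ESC genotypes overlapped, with 31.6, 24.5 and 11.1 in KO ESCs, against 17.9, 23.7 and 0 in WT ESCs. The log2 difference of 0.88 in EBs (SE 1.43, limma adjusted p = 0.99) was called without ESC replicate C (adjusted p = 0.0172, range over alternatives to 1) and not with the replicate block (adjusted p = 0.525).

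Hoxd8, a trunk gene, was the only tested one of the central paralogs. It had 45.2 and 34.0 normalized counts in KO EBs, against 37.5 and 32.7 in WT EBs, which overlapped, and 69.7, 64.5 and 8.33 in KO ESCs, against 31.5, 21.4 and 6.59 in WT ESCs. The log2 difference in ESCs was 0.99 (SE 0.88, limma adjusted p = 0.697), with adjusted p = 0.0627 under the replicate block. Without replicate C it was 1.34 (SE 0.24, adjusted p = 1.44e-03, range over alternatives to 0.949).

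Among the anterior genes, Hoxb4 was lower and Hoxd3 higher in KO than in WT EBs, library by library. Hoxb4, known for its part in blood stem cells, had 15.5 and 13.6 normalized counts in KO EBs, against 39.8 and 35.3 in WT EBs. In ESCs it had 23.4, 22.7 and 2.78 in KO, against 37.9, 30.5 and 0 in WT. KO was lower in every library pair except ESC replicate C, where the values rest on 1 read in KO and 0 in WT. The EB means were 14.6 ± 1.38 in KO and 37.6 ± 3.22 in WT (SD, n = 2 each). The log2 difference in EBs was -1.31 (SE 1.76, limma adjusted p = 0.952), called only without ESC replicate C (adjusted p = 1.02e-03, range over alternatives to 1) among the alternatives tried. The adjusted p with the replicate block was 0.237. Like all of cluster b, Hoxb4 lies on chromosome 11. The median log2 difference of tested genes there was -0.44 in EBs and -0.23 in ESCs, below the -0.02 of all genes. The part of this shift in the levels of Hoxb4 and other cluster b genes was not tested.

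Hoxd3, which shapes the neck vertebrae, had 16.2 and 28.0 normalized counts in KO EBs, against 6.13 and 11.2 in WT EBs. In ESCs it had 35.4, 25.4 and 5.55 in KO, against 9.30, 6.87 and 0 in WT, so that KO was higher under each letter. The log2 difference in ESCs was 2.09 (SE 1.04, limma adjusted p = 0.373), and the replicate block gave adjusted p = 0.0107 (range over alternatives 4.01e-03 to 0.732). In EBs it was 1.26 (SE 1.27, adjusted p = 0.861), with adjusted p = 0.0798 under the block and 0.0222 without ESC replicate C. Of the Hoxd3 exons, 62.3% overlap Gm28230 and Hoxd4 on the same strand, so its reads are uncertain.

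Hoxc4, a gene of the neck and upper trunk, had 14.1 and 11.9 normalized counts in KO EBs, against 6.13 and 4.30 in WT EBs, and 18.0, 9.99 and 5.55 in KO ESCs, against 18.6, 21.4 and 0 in WT ESCs. The EB genotypes did not overlap and the ESC genotypes did. Its log2 difference in EBs, 1.18 (SE 1.44, limma adjusted p = 0.927), was called without ESC replicate C (adjusted p = 0.0186) and not with the replicate block (adjusted p = 0.409).

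**Figure D4:**
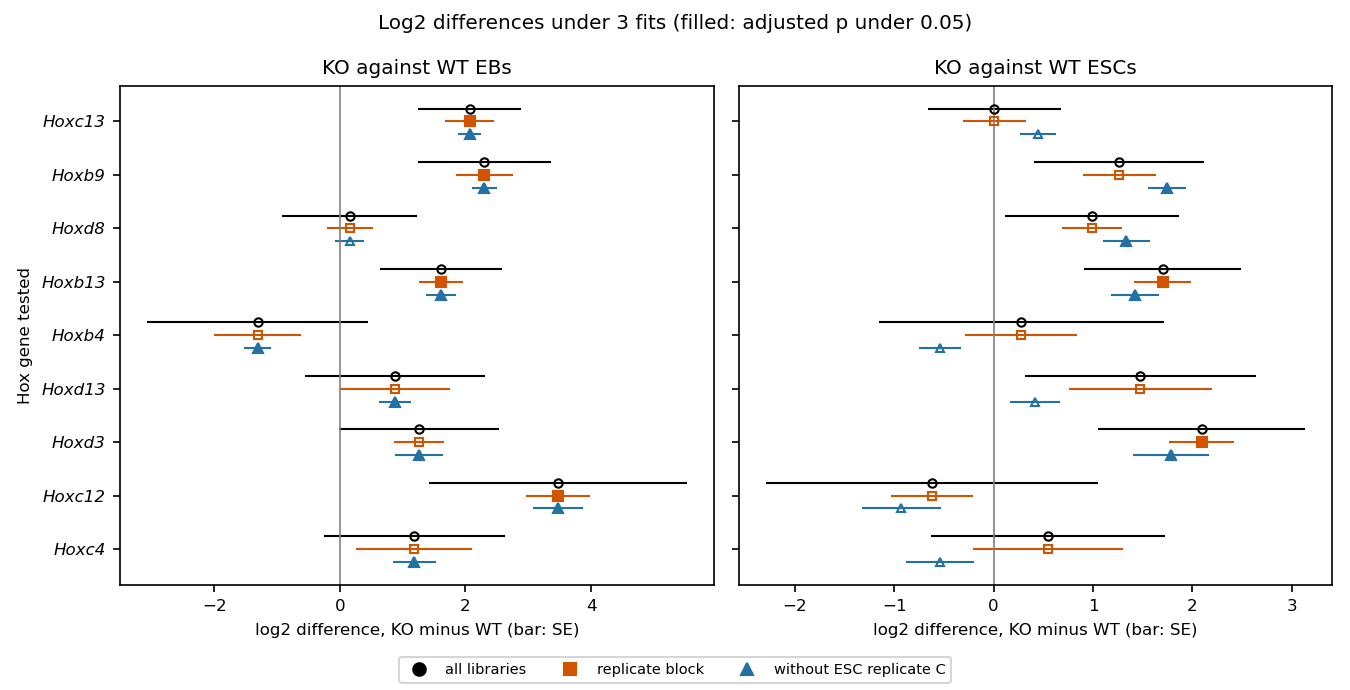
Log2 differences (KO minus WT, bars are SE) of 9 of the 10 tested Hox genes in EBs on the left and in ESCs on the right, from limma fits to all libraries, with the replicate block and without both ESC replicate C libraries. Filled symbols have an adjusted p under 0.05. With all libraries none is filled, and with the block Hoxc13, Hoxb9, Hoxb13 and Hoxc12 are filled in EBs and Hoxb13 and Hoxd3 in ESCs.

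The KO effect in EBs was set against that in ESCs in the same fit. With all libraries 0 of 10 Hox genes passed for this difference of effects (0.475% of all genes). At an unadjusted limma p under 0.05 there were 0 of 10 (1350 of all 15781 genes). The counts were 0 of 10 with edgeR (0.532% of all genes), 0 of 10 with DESeq2 (4.9% of all genes), with the replicate block 1 of 10 (7.79% of all genes) and without ESC replicate C 5 of 10 (36.1% of all genes). Hoxc12 was the gene called with the block, with a difference of 4.09 on the log2 scale (SE 0.66, limma adjusted p = 0.03, range over alternatives 4.91e-04 to 1). Without replicate C, Hoxc4, Hoxc12 and Hoxc13 had a more positive KO effect in EBs than in ESCs, and Hoxd8 a less positive one, with differences of 1.72, 4.40, 1.62 and -1.18 in that order. For Hoxc13 the adjusted p was 0.0752 with the block and 1.64e-03 without C. For Hoxc4 the difference turned negative when WT ESC A or B was left out.

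Differentiation was read by comparing EBs with ESCs of the same genotype. Between WT EBs and WT ESCs, 0 of 10 Hox genes passed with all libraries (2.48% of all genes) and 5 of 10 without ESC replicate C (46.1% of all genes), all lower in WT EBs. In that comparison edgeR called 0 of 10 (2.78% of all genes) and DESeq2 1 of 10 (9.66% of all genes), Hoxc12. Between KO EBs and KO ESCs the counts were 0 of 10 with all libraries (0.805% of all genes) and 3 of 10 without ESC replicate C (47.3% of all genes), all lower in KO EBs. There edgeR called 0 of 10 (1.22% of all genes) and DESeq2 0 of 10 (8.99% of all genes). At an unadjusted p under 0.05 limma had 0 of 10 in either comparison. Of all 15781 genes, 2287 were under it in WT and 2136 in KO. The replicate block gives no estimate of EBs against ESCs, since it was fitted within each cell type. The level of Hoxc12 was at least 25.1-fold lower in WT EBs (0 reads) than in WT ESCs (92 reads), with 3 reads over the WT EB group as the floor.

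Without ESC replicate C, Hoxc13 was lower in WT EBs than in WT ESCs by a log2 difference of -1.75 (SE 0.18, limma adjusted p = 1.02e-04). Hoxc4, Hoxb13 and Hoxd13 were lower in WT EBs without replicate C by -1.77, -0.96 and -0.81. These 3 directions did not hold throughout, since each turned positive in at least 1 of the other fits, and that of Hoxd13 was positive (0.67) with all libraries. In KO, Hoxb13, Hoxd8 and Hoxb4 were lower in EBs without replicate C by -0.77, -0.76 and -0.63, while with all libraries Hoxd8 and Hoxb4 had 0.20 and 0.26. Hoxb13 turned positive there without KO ESC A (0.087) or B (0.025). The 4 comparisons share their groups pairwise and are not independent of each other.

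A further 8 members reached a mean of 10 normalized counts in at least 1 group but not over all libraries, and were not tested. Hoxd1, known from pain-sensing neurons, had 26.8 and 14.4 normalized counts in KO EBs, against 6.90 and 9.47 in WT EBs, with 2.72, 0.91 and 2.78 in KO ESCs and 4.29, 3.05 and 3.29 in WT ESCs. KO EBs lay above every other library. The pooled ratio was 2.62 (95% exact binomial interval of counting error 1.54 to 4.61) for KO over WT EBs and 9.99 (4.54 to 26.0) for KO EBs over KO ESCs.

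Hoxa11, a gene of the limb and the uterus, had 6.36 and 3.40 normalized counts in KO EBs, against 20.7 and 10.3 in WT EBs, with 1.09, 4.54 and 0 in KO ESCs and no read in any WT ESC library. The level was at least 15.9-fold higher in WT EBs (39 reads) than in WT ESCs (0 reads), with 3 reads over the WT ESC group as the floor. Of its exons, 35.0% lie opposite Hoxa11os, and libraries that do not keep the strand cannot part the genes.

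Hoxd9, expressed towards the lower trunk, had 6.36 and 5.09 normalized counts in KO EBs, 13.02 and 2.58 in WT EBs, 23.9, 20.9 and 2.78 in KO ESCs and 10.0, 5.34 and 0 in WT ESCs. In ESC replicates A and B it was higher in KO, while the EB genotypes overlapped. The pooled ratio was 2.96 (1.79 to 5.08) for KO over WT ESCs and 0.281 (0.149 to 0.496) for KO EBs over KO ESCs.

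Hoxb2 and Hoxb3, hindbrain genes of cluster b, had higher values in EBs than in ESCs, least clearly for Hoxb3 in KO. Hoxb2 had 10.6 and 6.79 normalized counts in KO EBs and 12.3 and 12.9 in WT EBs, against 2.18, 0.91 and 0 in KO ESCs and 4.29, 4.58 and 0 in WT ESCs. Hoxb3 had 4.94 and 5.94 in KO EBs and 12.3 and 9.47 in WT EBs, against 2.72, 3.63 and 0 in KO ESCs and 2.86, 3.82 and 0 in WT ESCs. For both, every EB library lay above every ESC library of its genotype. The pooled ratio of EBs over ESCs for Hoxb2 was 5.85 (2.18 to 19.7) in KO and 3.15 (1.57 to 6.74) in WT. For Hoxb3 it was 3.66 (1.67 to 8.85) in WT. In KO it was 1.98 (0.798 to 5.18), from 14 reads in EBs and 9 in ESCs, an interval that includes no change. Hoxb3os lies opposite 27.3% of the Hoxb2 and 52.9% of the Hoxb3 exons.

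Hoxa5, Hoxa7 and Hoxa10 of cluster a were low in every group. Hoxa5, needed for the lung, had 13.4 and 7.64 normalized counts in KO EBs, 8.43 and 4.30 in WT EBs, 2.72, 8.17 and 0 in KO ESCs and 4.29, 4.58 and 3.29 in WT ESCs. Hoxa7, a trunk gene, had 11.3 and 8.49 in KO EBs, 6.90 and 5.16 in WT EBs, 16.3, 15.4 and 2.78 in KO ESCs and 3.58, 8.40 and 9.88 in WT ESCs, and 20.4% of its exons lie opposite Hoxaas3. In ESC replicates A and B Hoxa7 was higher in KO, and in C lower. Its pooled ratio for KO over WT was 2.31 (1.33 to 4.15) in ESCs and 1.65 (0.841 to 3.35) in EBs. Hoxa10, a gene of the lower trunk and uterus, had 11.3 and 3.40 in KO EBs, 6.90 and 16.4 in WT EBs, 10.3, 9.08 and 0 in KO ESCs and 11.4, 12.98 and 0 in WT ESCs. Replicates of Hoxa10 in EBs lay far apart in both genotypes, on 16 and 4 reads in KO and 9 and 19 in WT.

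The other 20 members stayed under a mean of 10 normalized counts in every group, with 3 to 87 reads over the 10 libraries together (median 31). The highest single value among them was 13.6 normalized counts, for Hoxa9 in KO ESC B. The scarcest was Hoxb1, whose 3 reads all came from WT EBs. Hoxb8 had 4 and 5 reads in KO EBs, 3 and 3 in WT EBs, 1, 0 and 0 in KO ESCs and none in WT ESCs. Hoxa4 had 7 and 3 reads in KO EBs and 0 and 1 in WT EBs, but none in KO ESCs and 5, 6 and 0 in WT ESCs. With no filter on low values, the fit called Hoxb1 in KO against WT EBs and Hoxb1, Hoxa11 and Hoxb8 in WT EBs against WT ESCs, which for Hoxb1 and Hoxb8 rests on 3 and 6 reads in WT EBs against none. Without that filter 4.42% of all genes were called between KO and WT EBs and 5.41% between WT EBs and WT ESCs.

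Levels per kb of exon allow genes to be ranked within a group. In KO EBs Hoxc13 came first with 38.5 ± 0.32 normalized counts per kb, followed by Hoxb9 with 32.8 ± 5.32 and Hoxb13 with 16.7 ± 1.43 (SD, n = 2). Hoxd8, next with 14.4 ± 2.90, did not differ from Hoxb13 beyond their spread, and Hoxb9 lay within 2 SD of Hoxc13. In WT EBs the order was Hoxb4 with 14.6 ± 1.25, Hoxd8 with 12.8 ± 1.24 and Hoxc13 with 8.96 ± 1.67, of which Hoxb4 and Hoxd8 were within 2 SD of each other. In ESCs the SD exceeded the gaps between neighbours, with replicate C low. Hoxc13 came first there too, with 30.8 ± 20.2 in KO and 25.6 ± 9.77 in WT (SD, n = 3).

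Of 38 noncoding genes with a row inside the clusters, 11 had no read, and 6 reached a mean of 10 normalized counts in a group. The lincRNA Gm53, between Hoxb9 and Hoxb13, had 228 and 202 normalized counts in KO EBs, against 144 and 176 in WT EBs, and 349, 285 and 36.1 in KO ESCs, against 344, 348 and 49.4 in WT ESCs. The genotypes did not overlap in EBs, but the difference was not called (limma adjusted p = 1). Hotairm1, in cluster a, had 12.0 and 17.0 in KO EBs, against 6.90 and 5.16 in WT EBs, and Hoxb3os had 16.2 and 13.6 in KO EBs, against 22.2 and 12.1 in WT EBs. Hoxa11os had 7.06 and 1.70 in KO EBs, against 11.5 and 8.61 in WT EBs, the same order as Hoxa11. Of the Hoxa11os exons, 26.0% lie opposite Hoxa11, and 76.2% of those of Hoxb3os lie opposite Hoxb2 and Hoxb3. Without strand information the reads there cannot be assigned to 1 gene, so these levels are not independent of the Hox genes. The fit to all libraries called none of the 3 that were tested, Gm53, Mir196a-1 and the pseudogene Gm11539.

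The hairpin of Mir196a-1, also between Hoxb9 and Hoxb13, had 16.2 and 20.4 normalized counts in KO EBs, against 9.96 and 13.8 in WT EBs, and 18.5, 22.7 and 0 in KO ESCs, against 20.03, 12.98 and 0 in WT ESCs. These are reads over the hairpin locus in a library of long RNA and not a level of the mature miRNA. Hox messages are known targets of miR-196, and its mature sequence from RefSeq (GRCm38.p6, plus strand) is shown with the seed, bases 2 to 8, in capitals.
miR-196a-5p, chr11:96265187-96265208: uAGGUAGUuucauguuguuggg

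Genes that act on or with Hox genes were read from lists chosen from textbook knowledge. Of 8 caudal, ParaHox and Evx genes, 1 was tested, Cdx1, an activator of Hox genes. It rose in KO EBs to 155 and 86.6 normalized counts, against 13.02 and 4.30 in WT EBs, a log2 difference of 3.76 (SE 0.63, limma adjusted p = 0.0342). Its relative Cdx2 had no read in KO EBs, against 18.4 and 15.5 normalized counts in WT EBs. In ESCs Cdx1 had 64.2, 60.8 and 33.3 in KO, against 73.0, 44.3 and 36.2 in WT, which overlapped.

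None of the 9 TALE cofactors passed in any of the 5 comparisons with all libraries, with a median log2 difference of 0.08 in EBs and 0.47 in ESCs. With the replicate block Meis1 was lower in KO EBs and Pbx3 higher (22.7% of all genes called), and Meis2 and Pknox2 were higher in KO ESCs (29.3%). Meis1 had 20.5 and 22.9 normalized counts in KO EBs, against 152 and 148 in WT EBs, a log2 difference of -2.74 (SE 0.91, limma adjusted p = 0.216, 8.46e-03 with the block). Meis2 had 186, 152 and 83.3 in KO ESCs, against 47.2, 45.04 and 23.1 in WT ESCs, a log2 difference of 1.83 (SE 0.43, adjusted p = 0.0716, 5.90e-03 with the block). The genotypes did not overlap in either case.

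Of 20 chromatin regulators of Hox genes, all tested, 0 rose and 1 fell in KO ESCs (2.38% of all genes called), and none passed in EBs (1.84%). With the replicate block 1 was called higher and 6 lower in KO ESCs (29.3%), and 4 higher and 4 lower in KO EBs (22.7%). The gene that fell was Suz12, a core subunit of Polycomb complex PRC2, with 1535, 1564 and 1569 normalized counts in KO ESCs, against 4165, 4710 and 2714 in WT ESCs. Its log2 difference was -1.27 (SE 0.21, limma adjusted p = 0.0336) in ESCs and -0.92 (SE 0.26, adjusted p = 0.139, 0.033 with the block) in EBs, where it had 1792 and 1961 in KO, against 3402 and 3679 in WT. Suz12 and cluster b are on the same chromosome. The part of Suz12 in the Hox levels was not tested.

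Of 18 genes of retinoic acid and hindbrain or trunk signals, 13 were tested, and 1 fell in KO EBs and 1 rose in KO ESCs. With the replicate block 2 were called higher and 1 lower in either cell type, where 22.7% of all genes were called in EBs and 29.3% in ESCs. Cyp26a1, which degrades retinoic acid, fell in KO EBs to 2.83 and 1.70 normalized counts, against 663 and 545 in WT EBs (log2 difference -7.55, SE 1.31, limma adjusted p = 0.0363). Rxra, a retinoid receptor, rose in KO ESCs to 531, 472 and 419, against 264, 221 and 227 in WT ESCs (log2 difference 0.99, SE 0.15, adjusted p = 0.0294). Among lists of markers of other cell types, 10 of 15 tested endoderm genes fell in KO EBs, where 1.84% of all genes were called (13 with the block, 22.7%), and the summed level of that list was 12840 to 14212 normalized counts in KO EBs, against 82643 to 83818 in WT EBs. In KO EBs 1 of 8 tested cardiac muscle genes and 1 of 7 of trunk and early mesoderm fell, and 0 of 9 neural, 0 of 14 pluripotency and 0 of 22 fibroblast and matrix genes passed. In KO ESCs 1 of 9 neural genes fell and 0 of the other lists' genes passed. The part of these cell types in the Hox differences was not tested.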

How the data were processed

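Per the labels' protocols, poly(A) RNA was made into libraries by TruSeq RNA preparation without strand information. The tools HTSeq 0.6.0, TopHat2 2.0.10, DESeq, Bowtie and CASAVA 1.8.2 and the build mm10 are listed, per the submitters' processing notes. The annotation release, strand setting and filters are not given in the sources used here. The deposited signal is a normalized count per gene, in which the authors scaled reads by 1 factor per library. Whole reads were recovered from the step of each column, within 0.01 for 100% of values. The table's 5 lines that name no gene were not used. Among them, the line for records outside any gene held 34.0% to 38.8% of records. The line for alignments that were not unique held a further 28.7% (KO ESC C) to 46.1% (KO EB A). The values of 1 tested Hox gene are not reported here, though counts and sums over the members include it. The WT embryonic fibroblast library of the series was not analysed here.

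Symbols, coordinates and types came from GENCODE release M21 for GRCm38, which matched 37607 of the 39179 identifiers. Values were put on the scale log2(normalized count + 1), which understates the change of low genes. The 15781 genes with a mean of 10 or more were fitted in limma 3.58.1 with 4 group means and trended, robust variances (R 4.3.3). The 5 contrasts were two-sided, with Benjamini-Hochberg adjustment over all genes tested at 0.05. The fit had 6 residual degrees of freedom, 3 with the replicate block and 4 without ESC replicate C. All groups share 1 estimate of the spread. The scripts were tested on simulated data. On the recovered counts, edgeR 4.0.16 and DESeq2 1.42.0 were run as alternatives.

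Deviations from the group mean of KO and WT ESC libraries with the same letter had r = 0.845, 0.828 and 0.858 across genes, all above 0.1, so the letters were taken as pairs, as a block within cell type, for KO against WT and for the difference of its effects only. Across letters r was 0.809 and 0.812 for A with B but -0.836 to -0.846 where C was paired with A or B, so this rests mostly on C. In EBs r was 0.369, with 2 pairs. No label says whether the libraries came from separate cultures, so p-values may measure technical spread. The Hox members, the gene lists and the tests were chosen with earlier results of these data known. Members with a group mean of 10 or more are given in every library and the others by reads and ranges. For each list up to 4 called genes of largest difference could be named, along with Mettl3 and noncoding cluster genes with a group mean of 10 or more. TALE genes called only with the block, Cdx2 and other genes named for few reads were chosen after their values were seen. Pooled ratios have exact binomial intervals and shares Wilson intervals, both at 95%. They and the floor of 3 reads cover counting error only, since PCR duplicates were not separated.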

Additional observations from a re-analysis of the deposited data

Results flagged for a closer look

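Hoxc12 stood out because the KO effect in EBs and that in ESCs differed in a test of the difference itself. With the replicate block the KO effect on the log2 scale was larger in EBs than in ESCs by 4.09 (SE 0.66, limma adjusted p = 0.03). The gene had 21 and 8 reads in KO EBs, 0 and 0 in WT EBs, 38, 16 and 0 in KO ESCs and 49, 43 and 0 in WT ESCs. With all libraries and no block the size was the same with an SE of 2.65 and an adjusted p of 0.911. The size depends on the pseudocount, since WT EBs had no read.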

How the results depend on the processing

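With all 10 libraries 0 of the 10 tested Hox genes were called in each of the 5 comparisons, and this count was also 0 throughout with a pseudocount of 0.5 or 5, with TMM scaling and with edgeR. The replicate block called 2 in KO against WT ESCs (29.3% of all genes) and 4 in KO against WT EBs (22.7%). For the change of the KO effect between EBs and ESCs it called 1 (7.79%). The block was fitted within each cell type and so gave no estimate of EBs against ESCs. A block of letters shared by ESCs and EBs was not fitted. Leaving out both ESC replicate C libraries called 4 between KO and WT ESCs (55.2% of all genes) and 8 between KO and WT EBs (51.9%). It called 5 between EBs and ESCs of WT (46.1%) and 3 between EBs and ESCs of KO (47.3%). In the difference it called 5 (36.1%). With no filter, counted over all 38 members, 1 was called between KO and WT EBs (4.42% of all genes). In that setting 3 were called between EBs and ESCs of WT (5.41% of all genes), and none of these calls was among the 10 tested. DESeq2 called 1 of the 10 in each of these comparisons (9.83% and 9.66% of all genes). Leaving out 1 ESC library at a time gave 0 to 1 in KO against WT ESCs and in KO against WT EBs. In the other comparisons it gave 0. The 1 in each came without KO ESC replicate C, where 2177 of all 15781 genes were called in ESCs and 1162 in EBs. They were Hoxb9 in ESCs (log2 difference 2.26, limma adjusted p = 0.0357) and Hoxc13 in EBs (limma adjusted p = 0.0356). Over all genes tested, the calls in KO against WT ESCs were 376 with all libraries, 4627 with the block and 8715 without C, and in KO against WT EBs 290, 3578 and 8196.

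Of 442 alternative values of the 25 log2 differences called with the block or without C, 387 kept their direction and side of the threshold, 33 came to pass it and 22 changed direction, in 7 differences. For Hoxb4 in KO EBs against KO ESCs the value turned to -0.24 with edgeR, -0.22 with DESeq2 and -0.63 without both C libraries. For Hoxd8 in that comparison the values were -0.28, -0.29 and -0.76, and for Hoxd13 in WT EBs against WT ESCs -0.41, -0.46 and -0.81. Leaving out 1 library at a time, the range was -0.76 to 0.70 for Hoxd8, -0.63 to 0.71 for Hoxb4 and -0.77 to 0.087 for Hoxb13 in KO EBs against KO ESCs. It was -0.81 to 1.51 for Hoxd13, -0.96 to 0.40 for Hoxb13 and -1.77 to 0.47 for Hoxc4 in WT EBs against WT ESCs, and -0.14 to 2.10 for Hoxc4 in the difference of KO effects. The other 25 differences changed direction in 60 of 438 values. The cause was not tested. In ESC replicate C, 3 reads are worth 8.33 (KO) and 9.88 (WT) normalized counts, near or above the level of most Hox genes. Scaled by reads in genes, the Hox sum was low there too, at 13.7 RPM in KO and 9.25 in WT. In replicates A and B it was 72.0 and 65.3 in KO and 43.5 and 42.4 in WT. The part of depth in the changes of direction was not tested.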

Other observations

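The processed pseudogene Gm11539, between Hoxb9 and Hoxb13 in cluster b, followed the replicate letter more than the genotype or the cell type. It had 1055 and 429 normalized counts in KO EBs A and B, 1046 and 520 in WT EBs A and B, 1116, 540 and 0 in KO ESCs A, B and C and 1383, 611 and 3.29 in WT ESCs A, B and C. Replicate A exceeded B in all 4 groups. Reads of a processed pseudogene and of its parent gene cannot always be told apart, so the level is uncertain.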
